A study of Rattus norvegicus with 9 samples.

Results

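The cytosolic ribosome of rat chondrocytes was followed through the transcripts of its own proteins, chosen by gene name: every row named Rpl or Rps with a number (and an optional a, x or y), with Rplp0 and Rpsa. The rule found 78 rows with 70 names among 18924 rows, 47 of the large (60S) subunit and 31 of the small (40S) subunit. Kinases of the Rps6k type and paralogs with an l suffix were left out. The table held 0 rows named as pseudogenes of the members. Extra copies under a member's own name are kept, since the rule reads names alone. Primary chondrocytes of the Sprague-Dawley (SD) rat at passage 1 or 2 were kept for 24 h in rat plasma (RP), in plasma to which thrombin was added (RPT), or in plasma with both thrombin and an inhibitor whose name the labels leave out (RPTi), with 3 libraries in each group. All 3 groups therefore share the plasma. The design had no group without plasma and none with the inhibitor but without thrombin. Poly-A RNA was sequenced as paired-end reads. No label states if a group's 3 libraries are different animals or cultures, so p-values measure the spread between these libraries, which may be technical.

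The ribosome is built from ribosomal RNA and about one protein of each kind per particle, so the cell makes these proteins in matched amounts and degrades unassembled ones. Their messenger RNAs are among the most abundant in growing cells and start with a run of pyrimidines (C or T), the 5′ terminal oligopyrimidine (TOP) motif. Through this motif the kinase mTOR and the protein Larp1 control how strongly they are translated, a step that the level of poly-A RNA does not report. In cartilage, ribosomes carry the load of collagen and aggrecan core protein synthesis. Thrombin is the clotting protease that also acts on cells through protease-activated receptors.

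All 9 chondrocyte markers on the list were present, with Col2a1 at 15060 to 42345 CPM (a count divided by its library's total after TMM scaling). Their summed level was 47437 to 48444 CPM in RP, 29783 to 31597 CPM in RPT and 73172 to 79358 CPM in RPTi, with no overlap between groups. Summed macrophage markers (5 of 6 found) were 23.4 to 27.3, 44.5 to 46.3 and 24.5 to 28.8 CPM in the same order, most of it Cd14, while Ptprc and Adgre1 stayed at or below 0.132 CPM. Summed endothelial markers (4 of 5 found) lay between 0.427 and 1.25 CPM with Cdh5 at 0.0619 CPM or less, and of 6 blood cell markers only Pf4 was found, at 0.268 CPM or less. Muscle and fat markers (7 of 7 found) summed to 19.3 to 22.1, 28.0 to 32.2 and 27.6 to 31.5 CPM, most of it Des (14.0 to 25.8 CPM). The median log2 fold change of the 5 tested genes of this list was 0.06 in RPT against RP and -0.45 in RPTi against RP, so the sum does not describe each gene. The part that these shifts have in the values below was not tested. Library totals ran from 31877265 to 43962783 counts. In bulk libraries, fewer cells of a kind and less RNA per cell cannot be told apart.

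Ribosomal protein transcripts formed one of the most abundant groups in these cells. By deposited FPKM, a level per length and per library total, the 76 rows that passed the filter on low counts had a median mean level of 574 over the 9 libraries, against 7.43 for all 13856 tested rows. Of the 100 most abundant tested rows 33 were ribosomal proteins, and 10 were among the first 50. Median levels of the 45 tested 60S rows (545 FPKM) and the 31 tested 40S rows (591 FPKM) lay close together. The highest were the stalk protein gene Rplp0 at 2359 ± 202 FPKM (SD, n = 9), Rps2, at the mRNA entry of the small subunit, at 2307 ± 222, Rps20, of the small subunit's head, at 1858 ± 149.9, Rpsa, also known as the laminin receptor precursor, at 1705 ± 120.5, and Rpl41, the smallest member, at 1613 ± 163. The means of Rplp0 and Rps2 lay closer together than their SD, as did those of Rpsa and Rpl41. This SD includes shifts that rows of one library share. Within single libraries the order mostly followed the means. It was reversed in RPT 2 and RPT 3 for Rplp0 and Rps2, and in RPTi 2 for Rpsa and Rpl41.

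Not every member was abundant. Levels of at least 1000 FPKM were found for 13 rows and of at least 100 FPKM for 62, while 14 tested rows lay under 100 and 6 under 10. The lowest tested rows were Rps9 at 1.09 ± 0.181 FPKM, Rpl8 at 2.00 ± 0.375, Rpl35a at 3.22 ± 0.828, Rps6 at 4.93 ± 1.10, and one of the 2 Rpl32 rows (ENSRNOG00000032605) at 6.55 ± 2.26. Rps6, the protein that S6 kinases phosphorylate, thus stood far below Rplp0 although the ribosome holds both. Rpl38 (0, 4 and 1 counts in RP, 0 in each RPT library, 2, 1 and 1 in RPTi) and another Rpl21 row (ENSRNOG00000049848, 0 to 4 counts) did not pass the filter and were not tested.

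Copies limit what a single row means. RefSeq (assembly GRCr8) lists 845 entries named as pseudogenes of the 70 names, between 1 and 36 for each and 12 at the median, with 36 for Rps2. In the table, 6 names had more than 1 row (14 rows together): Rpl21 had 4, and Rps4x, Rpl7a, Rps19, Rpl32 and Rps27a had 2 each. Reads that fit several copies may have been split, assigned to one or dropped, so levels and folds of all these genes are uncertain, and the part of copies in the low rows was not tested. The lengths implied by the deposited values also ranged widely, from 156 bases for Rpl39 to 5151 for Rpl7, which enters every FPKM level. Rplp1, Rplp2 and Rpl22 were not analysed here.

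**Figure D1:**
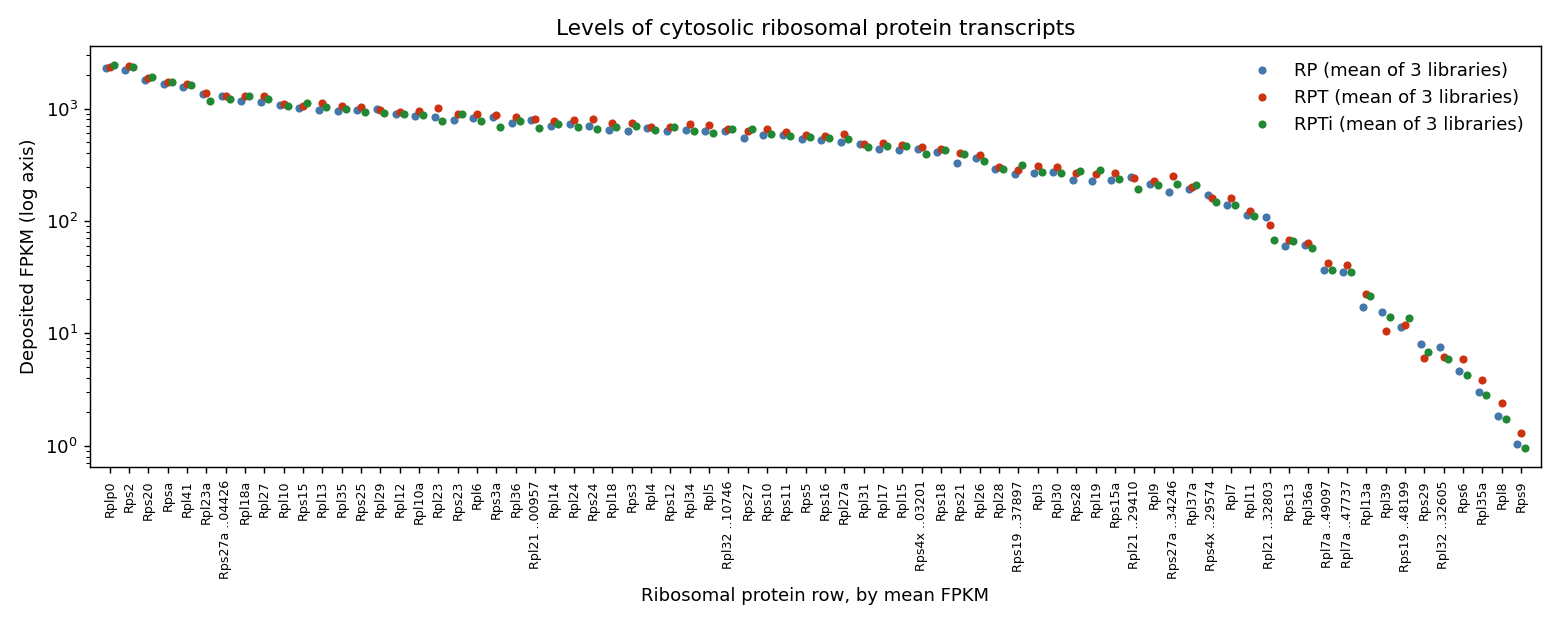
Mean deposited FPKM (log axis) of 74 tested ribosomal protein rows in RP, RPT and RPTi (mean of 3 libraries each), ordered by the mean over 9 libraries. The 3 groups lie close together in nearly every row, while the rows span from 1.09 FPKM (Rps9) to 2359 FPKM (Rplp0).

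Pyrimidine runs at annotated start sites were more frequent in the members than in all entries, but not every member had one. RefSeq entries were found by symbol for 55 of the 70 names (56 entries), and the longest run of C or T on the sense strand that touched the window from 5 bases before to 10 after the annotated start was measured. It had a median of 9.5 bases in the members and 4 in all 33469 entries of the table. Runs of at least 8 bases were present in 58.9% of member entries and 10.6% of all. Such a run included the start base in 46.4% of member entries (4.31% of all), ended before it in 8.93% (2.56%) and began after it in 3.57% (3.7%). At least 5 bases of C or T from the start base on, which lie in the annotated transcript, were found in 50% against 4.75%, and a C stood at the start itself in 48.2% against 24.1%. The windows below, 20 bases before the start and 15 from it, are those of Rplp0, of Rps6 and of the members named with a single row that passed a comparison and had an entry, with the run in capitals, wherever it lies (GRCr8, the strand of the gene, 5′ to 3′).
Rplp0: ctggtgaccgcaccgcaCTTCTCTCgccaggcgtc
Rpl13a: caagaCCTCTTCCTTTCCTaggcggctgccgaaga
Rpl23: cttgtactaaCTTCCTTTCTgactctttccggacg
Rpl3: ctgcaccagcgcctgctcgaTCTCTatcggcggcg
Rps15a: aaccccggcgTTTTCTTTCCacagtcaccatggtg
Rpl39: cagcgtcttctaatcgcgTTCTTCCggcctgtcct
Rps3a: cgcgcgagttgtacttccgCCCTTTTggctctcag
Rps27: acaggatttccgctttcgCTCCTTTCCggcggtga
Rpl19: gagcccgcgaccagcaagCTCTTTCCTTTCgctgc
Rps6: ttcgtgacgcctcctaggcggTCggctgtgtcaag
The positions are chr12:46718376-46718410 (minus strand) for Rplp0, chr1:104748899-104748933 (minus) for Rpl13a, chr10:83272170-83272204 (minus) for Rpl23, chr7:113507976-113508010 (minus) for Rpl3 and chr1:181860270-181860304 (minus) for Rps15a. Those of the others are chrX:121195882-121195916 (minus) for Rpl39, chr2:173827028-173827062 (minus) for Rps3a, chr2:177964592-177964626 (minus) for Rps27, chr10:83519044-83519078 (plus) for Rpl19 and chr5:106420526-106420560 (minus) for Rps6. The runs of Rplp0, Rpl3, Rpl39, Rps3a, Rps27 and Rpl19 include the start base. Those of Rpl13a (14 bases), Rpl23 (10) and Rps15a (10) end before it, so by this annotation they lie outside the transcript. Rps6 has a run of 2 bases after its start.

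Other words searched on both strands of the 300 bases around the start also differed in frequency. CTTTCC, which can overlap a pyrimidine run, was found in 51.8% of member entries and 26.4% of all, and CTTTTC in 39.3% and 23.2%. The ETS-type word CCGGAAG was found in 28.6% and 8.75%, the YY1-type word ATGGCGG in 25% and 4.8%, and GGGCGG in 58.9% and 33.1%, whereas TATAAA was found in 10.7% and 14.2%. A match is a string of letters, not a binding site. For names with a single tested row, median log2 fold changes in RPT against RP were 0.14 for runs of at least 8 bases (32 names), 0.05 for runs of 5 to 7 (6 names) and 0.09 for shorter runs (11 names). These medians are smaller than the range within each set (-0.05 to 0.36, -0.57 to 0.20 and 0.04 to 0.32).

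Together the members took a similar share of all counts in each group. The share was 3.55, 3.69 and 3.26% in the RP libraries, 3.65, 3.98 and 3.72% in RPT and 3.63, 3.67 and 3.36% in RPTi. Means were 3.5% ± 0.219 in RP, 3.78% ± 0.173 in RPT and 3.55% ± 0.169 in RPTi (SD, n = 3), and the ranges of all 3 groups overlapped. With the 20 most abundant other rows taken out of the total, which hold the collagen and aggrecan counts that moved with the groups, the means were 4.24, 4.50 and 4.39%.

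The balance between the subunits differed slightly. Small subunit rows made up 42.8, 43.1 and 42.3% of the members' FPKM in RP, 42.8, 43.4 and 42.6% in RPT and 43.9, 43.8 and 43.7% in RPTi. The 3 RPTi libraries lay above all others on this measure. On counts instead of FPKM RP had shares of 41.1 to 41.8%, RPT of 41.1 to 42.0% and RPTi of 41.9 to 42.3%, and the RPT and RPTi ranges overlapped.

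**Figure D2:**
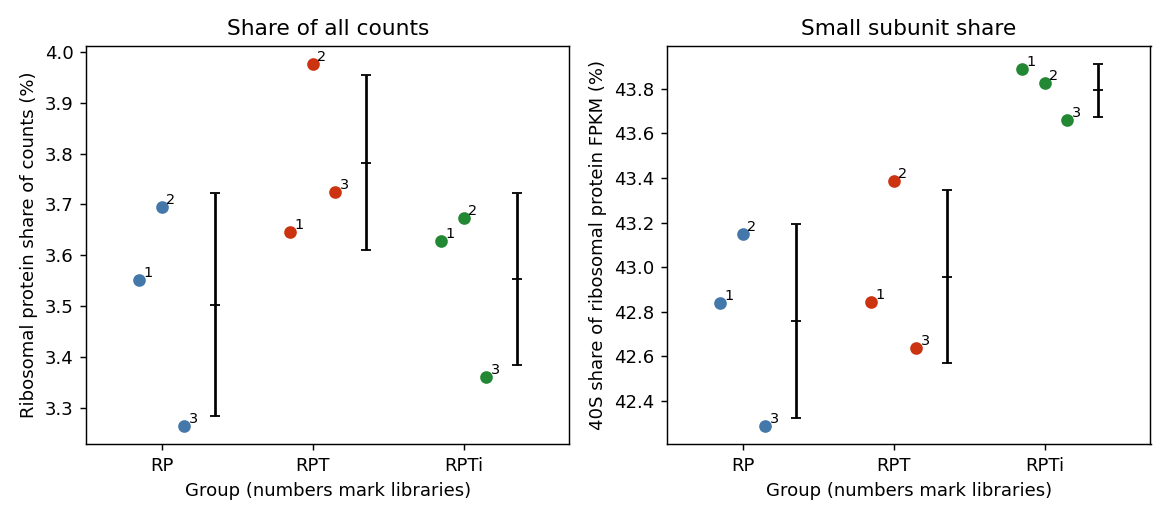
Left, share of all counts taken by ribosomal protein rows in each library (points, numbered by library) with mean and SD of 3 libraries. Right, the 40S share of the members' FPKM. The left ranges overlap between groups, and on the right the RPTi libraries (43.7 to 43.9%) lie above the others; both axes start above 0.

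The members varied together from library to library, whatever the group. Of 62 rows with a mean of at least 100 FPKM, 48 were highest in RP library 2 within the RP group, 38 in RPT library 2 within RPT and 37 in RPTi library 2 within RPTi. The lowest library was RP 3 for 50 rows, RPT 1 for 37 and RPTi 3 for 55. The median SD of log2 CPM within a group was 0.0963 (RP), 0.130 (RPT) and 0.0778 (RPTi) for 60 members with a mean of at least 100 CPM, and 0.0713, 0.105 and 0.0515 for the 1868 rows of all kinds at that level. The members' differences between libraries of one group were thus of the size of many of the differences between groups described below. Leaving out single libraries moved the counts of called members accordingly.

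**Figure D3:**
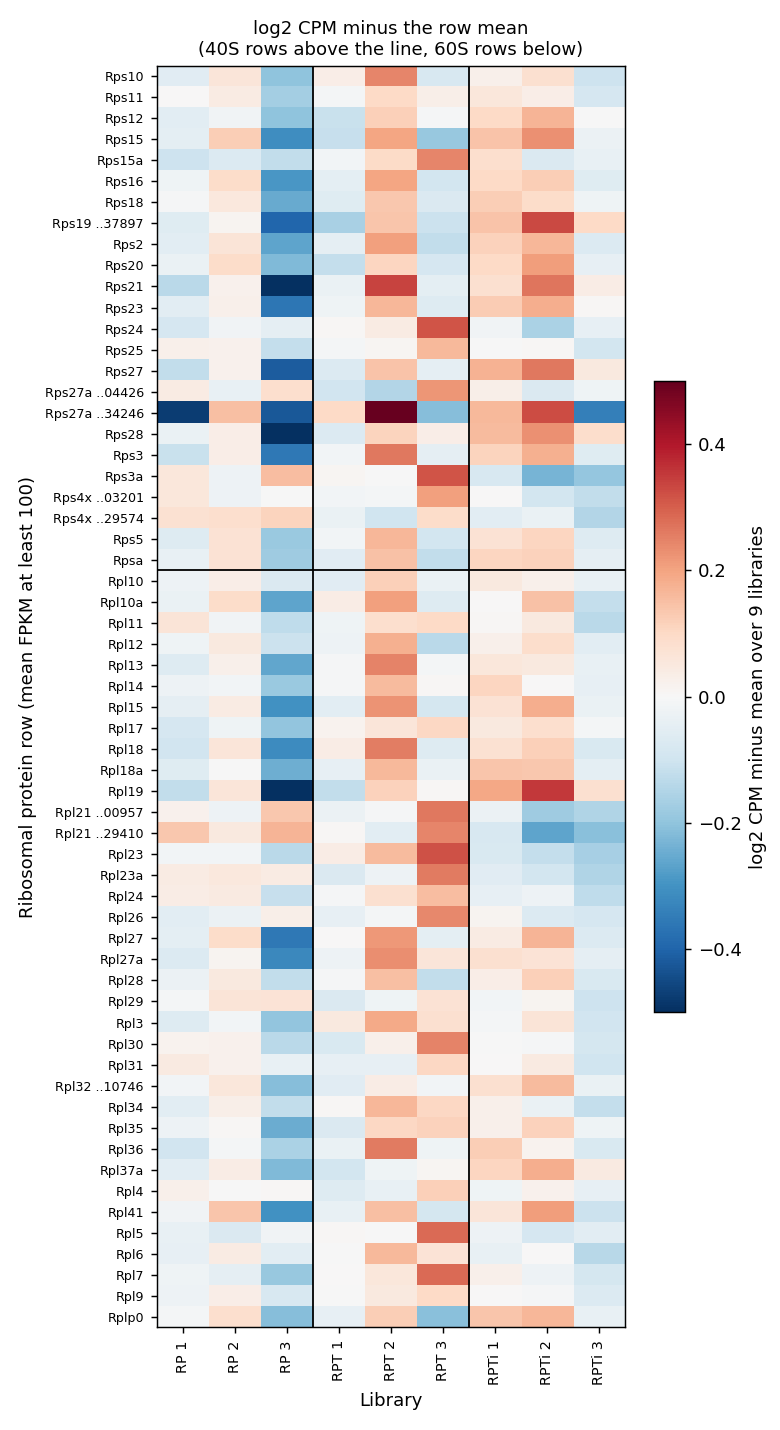
Log2 CPM of 60 ribosomal protein rows with a mean of at least 100 FPKM, minus the row's mean over 9 libraries (colour, limited to -0.5 and 0.5), with libraries in columns and 40S rows above the line. RP library 3 is low in most rows and library 2 is high in many rows of each group.

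In cells given thrombin, nearly all ribosomal protein transcripts stayed within a narrow band of their level in plasma alone. In RPT against RP, 6 rows rose, 1 fell and 69 did not pass among 76 tested (9.21%), where 28.9% of all tested rows passed (13.6% rising and 15.2% falling). With a block for the replicate number, described in the last section, 22 rose and 0 fell (28.9%, beside 36.6% of all tested rows). The members' median log2 fold change was 0.10 (range -0.57 to 0.47) with 66 of 76 above 0, and the median of all tested rows was 0.00. The 95% interval lay within 0.5 on the log2 scale of no change for 64 of 76 rows, and no member changed by 1 or more. The members' median stayed above 0 under every scaling (0.09 to 0.12) and every left-out library (0.04 to 0.16). Between libraries of one group, however, the members' median level varied with an SD of 0.0897 on the log2 scale, about the size of this shift. Since the members moved together by library, the 66 rows above 0 are not separate measurements. 60S and 40S rows had the same median, 0.10.

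Rpl13a (ENSRNOG00000062298) had the most stable change. This large subunit protein is also part of the interferon-gamma-activated inhibitor of translation complex, and its transcript is a common reference in quantitative PCR. It stood at 47.4, 50.5 and 39.7 CPM in RP, at 60.5, 61.1 and 55.5 CPM in RPT and at 56.7, 65.0 and 55.8 CPM in RPTi. All RPT and all RPTi libraries were above all RP libraries. It rose 1.29-fold in RPT (log2 0.36, SE 0.09, adjusted p = 0.0113). Of the members named here, it was the only one that kept its call in this comparison under every alternative run.

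Other members that rose changed by less than 1.25-fold, among them Rpl23, Rpl3 and Rps15a, structural proteins of either subunit. Rpl23 (ENSRNOG00000004107), a large subunit protein that in free form binds Mdm2, stood at 487, 487 and 447 CPM in RP and at 504, 548 and 613 CPM in RPT, with no overlap, and rose by 0.23 (SE 0.07, adjusted p = 0.0278) on the log2 scale. Rpl3 (ENSRNOG00000016896), which reaches towards the peptidyl transferase centre, stood at 941, 973 and 857 CPM in RP and at 1017, 1121 and 1040.5 CPM in RPT and rose by 0.20 (SE 0.06, adjusted p = 0.036). For both the lowest RPT library lay just above the highest RP library. Rps15a (ENSRNOG00000018320) went from 326, 334 and 322 CPM to 347, 374 and 415 CPM (0.21, SE 0.07, adjusted p = 0.0377). Here, too, the groups did not overlap.

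Rpl39 (ENSRNOG00000032835), a small protein that lines the exit tunnel of the large subunit, was the only member that fell. It had 94, 77 and 103 counts in RP and 70, 45 and 51 in RPT, or 2.12, 2.29 and 2.72 CPM against 1.83, 1.39 and 1.55 CPM. The groups did not overlap, and the fall was 0.57 on the log2 scale (log2 fold change -0.57, SE 0.20, adjusted p = 0.0485). In RPTi it stood at 2.11, 2.58 and 2.09 CPM, above all RPT libraries, with a fold of 0.50 against RPT that did not pass (SE 0.20, adjusted p = 0.0644). Its paralog Rpl39l, outside the naming rule of the family and known from testis and some tumours, stood higher, at 18.1, 18.2 and 16.9 CPM in RP, 21.6, 23.9 and 25.2 CPM in RPT and 19.3, 18.4 and 16.4 CPM in RPTi. Rpl39l rose in RPT (log2 0.41, SE 0.09, adjusted p = 0.00419) and was lower in RPTi than in RPT (log2 -0.39, SE 0.09, adjusted p = 0.00378), in the opposite directions to the values of Rpl39.

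Most of these calls depended on single libraries, and some on the processing. Without RP 1 or without RP 3, Rpl23, Rpl3, Rps15a and Rpl39 lost their call (adjusted p 0.0562 to 0.104 and 0.092 to 0.159), and without RPT 2 Rpl3, Rps15a and Rpl39 lost it (0.057 to 0.135). Without RPT 3, Rpl23, Rpl39 and Rps15a did not pass (0.0719 to 0.101), and without RP 2 Rpl39 and Rps15a did not (0.0645 to 0.0803). Without any 1 RPTi library Rpl39 did not pass (0.0518 to 0.0627), nor did Rpl3 without RPTi 1 (0.056) or Rps15a without RPTi 3 (0.0532). Rpl39 also lost its call with DESeq2 size factors, library totals alone, low counts left unfiltered, the DESeq2 Wald test or only the 2 groups compared (0.0506 to 0.0772), and Rpl3 with upper quartile factors (0.0567) or only the 2 groups compared (0.0508). Without all 3 libraries numbered 2, an alternative chosen after seeing the data, 2 members rose and none fell, against 21.0% of all rows called.

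**Figure D4:**
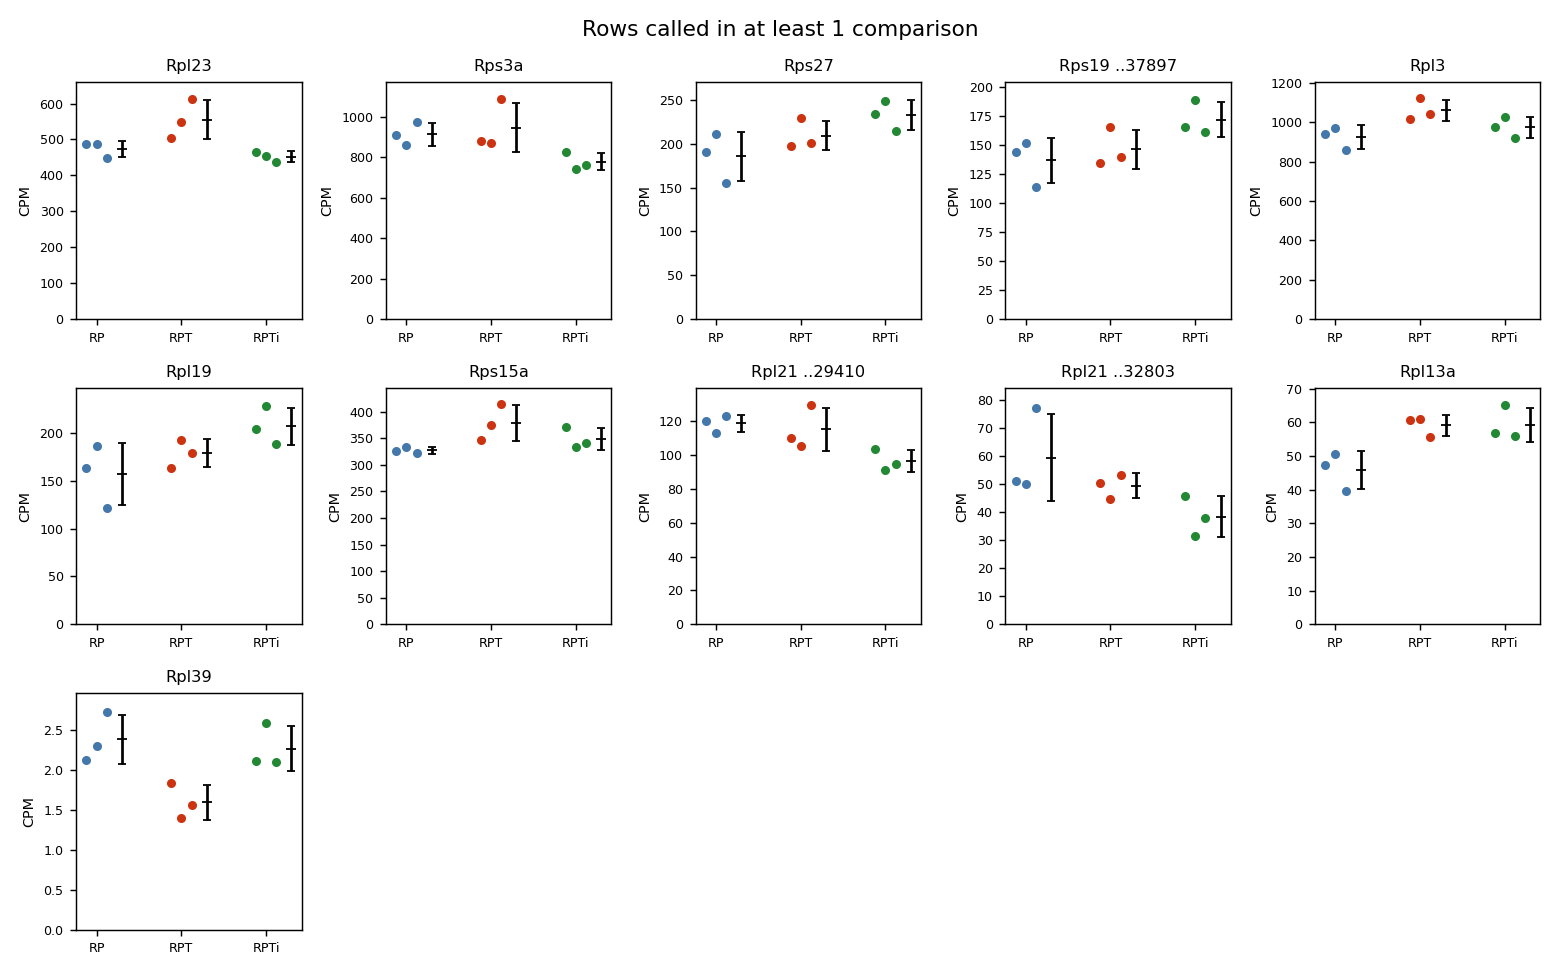
CPM of 11 ribosomal protein rows called in at least 1 comparison, by library (points) with mean and SD of 3 libraries per group; each axis starts at 0. Rpl13a lies higher in RPT and RPTi than in RP, Rpl23 is highest in RPT, and the Rpl21 rows are lowest in RPTi.

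With the inhibitor added to thrombin, Rpl23, Rps3a and a row of Rpl21 were called lower than in RPT. Of these calls only that of Rpl23 held under every alternative run. In RPTi against RPT, 0 rows rose, 3 fell and 73 did not pass among 76 (3.95%), where 41.5% of all tested rows passed (20.4% rising and 21.1% falling). With a replicate block, 6 rose and 11 fell (22.4%, beside 48.3% of all tested rows). At an unadjusted p under 0.05 there were 10 of 76 members and 6772 of all 13856 tested rows. The DESeq2 Wald test called 0 members rising and 5 falling (6.58%), beside 42.1% of all tested rows. The members' median was -0.03 (range -0.42 to 0.50) with 47 of 76 below 0, and -0.01 for all tested rows. The 60S rows had a median of -0.05 and the 40S rows of 0.02. The sign of the members' median was negative under every scaling (-0.11 to -0.01), but positive without RPT 2 (0.0199) or without RPTi 3 (0.0032).

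Rpl23 fell from 504, 548 and 613 CPM in RPT to 466, 453 and 438 CPM in RPTi. All RPTi libraries were below all RPT libraries and within or just under the RP range. The fall was 0.30 on the log2 scale (log2 fold change -0.30, SE 0.07, adjusted p = 0.00471), and it passed under every alternative run. Rps3a (ENSRNOG00000011893), a small subunit protein near the mRNA exit, stood at 881, 873 and 1088 CPM in RPT and at 827, 745 and 765 CPM in RPTi. The groups did not overlap, and it was lower in RPTi by a log2 fold change of -0.28 (SE 0.08, adjusted p = 0.0165). In RP it stood at 909.7, 861 and 975 CPM, and the log2 fold change of RPTi against RP, -0.23, did not pass (SE 0.08, adjusted p = 0.0633), but it passed under 9 of 22 alternatives (adjusted p from 0.00933 to 0.192 over all 22).

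Rpl21, a large subunit protein, had 4 rows, of which 3 were tested. The row ENSRNOG00000029410 stood at 109.9, 106 and 129.7 CPM in RPT and 103, 91.1 and 94.7 CPM in RPTi, with no overlap, and fell by 0.26 (log2 fold change -0.26, SE 0.08, adjusted p = 0.0238). Its call and that of Rps3a were lost without RPTi 2 (adjusted p 0.0913 and 0.0625) or RPTi 3 (0.0712 and 0.0531), and that of Rpl21 also without RPT 3 (0.0775). With library totals alone in place of TMM factors, 17 members fell, and on log2(FPKM + 1) 1 rose and 16 fell. In each of these settings 22.4% of the members were called, beside 44.4% and 43.2% of all tested rows. In those settings the share of rising rows among all called rows went from 49.2% to 38.4% and 38.8%. Members far from the median without a call were Rpl8 (-0.42, SE 0.21), Rps6 (-0.39, SE 0.20) and Rps9 (-0.37, SE 0.18), all with 35 to 208 counts in every RPT and RPTi library.

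With thrombin and the inhibitor, set against plasma alone, Rpl13a, Rpl19, Rps27 and a row of Rps19 were called higher and 2 rows of Rpl21 lower. Without RPTi library 2 none of these passed, as given below. In RPTi against RP, 4 rows rose, 2 fell and 70 did not pass (7.89%), where 24.2% of all tested rows passed (11.9% rising and 12.3% falling). This gap depended on the model. With a replicate block, 22 rose and 4 fell (34.2%, beside 33.8% of all tested rows). The members' median was 0.07 (range -0.63 to 0.40), 0.12 for 40S and 0.05 for 60S rows, and -0.01 for all tested rows. It was above 0 under every scaling (0.02 to 0.08) and every left-out library (0.01 to 0.12), but below the SD of 0.0897 between libraries of one group. This comparison shares the RP libraries with the first and the RPTi libraries with the second, so its values are not independent of theirs.

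Rpl13a rose here by 0.37 (SE 0.09, adjusted p = 0.0127). Rpl19 (ENSRNOG00000004741), at the interface between the subunits, stood at 164, 186 and 121 CPM in RP, 164, 193 and 179 CPM in RPT and 204, 228 and 189 CPM in RPTi. It rose in RPTi by 0.40 (SE 0.13, adjusted p = 0.0382), and RPTi lay above RP in every library. Rps27 (ENSRNOG00000016961), a zinc finger protein of the small subunit also known as metallopanstimulin, stood at 191, 211 and 156 CPM in RP and at 234, 249.7 and 215 CPM in RPTi and rose by 0.33 (SE 0.10, adjusted p = 0.0331). The more abundant Rps19 row (ENSRNOG00000037897), of the gene most often mutated in Diamond-Blackfan anaemia, stood at 144, 152 and 114 CPM in RP and 166, 189 and 161 CPM in RPTi and rose by 0.33 (SE 0.11, adjusted p = 0.0418). In all 3 genes RP library 3 was the lowest of the 9 libraries.

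Both falling rows were of Rpl21. ENSRNOG00000032803 stood at 51.4, 50.1 and 77.4 CPM in RP and at 46.0, 31.5 and 38.0 CPM in RPTi, with RP library 3 far above the others, and fell by 0.63 (log2 fold change -0.63, SE 0.17, adjusted p = 0.0148). ENSRNOG00000029410 stood at 120.2, 113 and 123 CPM in RP and fell by 0.30 (log2 fold change -0.30, SE 0.08, adjusted p = 0.0172). The most abundant row, ENSRNOG00000000957, went from 369, 358 and 399.6 CPM to 357, 322 and 328 CPM and did not pass (adjusted p = 0.166). When rows of one name were summed, an alternative chosen after seeing the data, no member fell.

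These calls too depended on single libraries and on the scaling. Without RPTi 2 none of the 6 passed (adjusted p 0.0644 to 0.162), and without RP 3 only Rpl13a did (0.0501 to 0.145 for the other 5). Without RP 1, Rpl19, Rps27, Rps19 and Rpl21 ENSRNOG00000029410 did not pass (0.0593 to 0.0697), without RPTi 1 the first 3 of these (0.0816 to 0.0935), and without RPTi 3 the last 2 (0.0533 to 0.0558). Rpl19, Rps27 and Rps19 did not pass with library totals alone or on log2(FPKM + 1) (0.0553 to 0.0915). With library totals alone 1 member rose and 4 fell (6.58% of members, beside 26.0% of all tested rows). The DESeq2 Wald test called 7 members rising and 3 falling (13.2%, beside 26.2%). The share of rising rows among all called rows was 49.1%, and 36.6% with library totals alone.

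**Figure D5:**
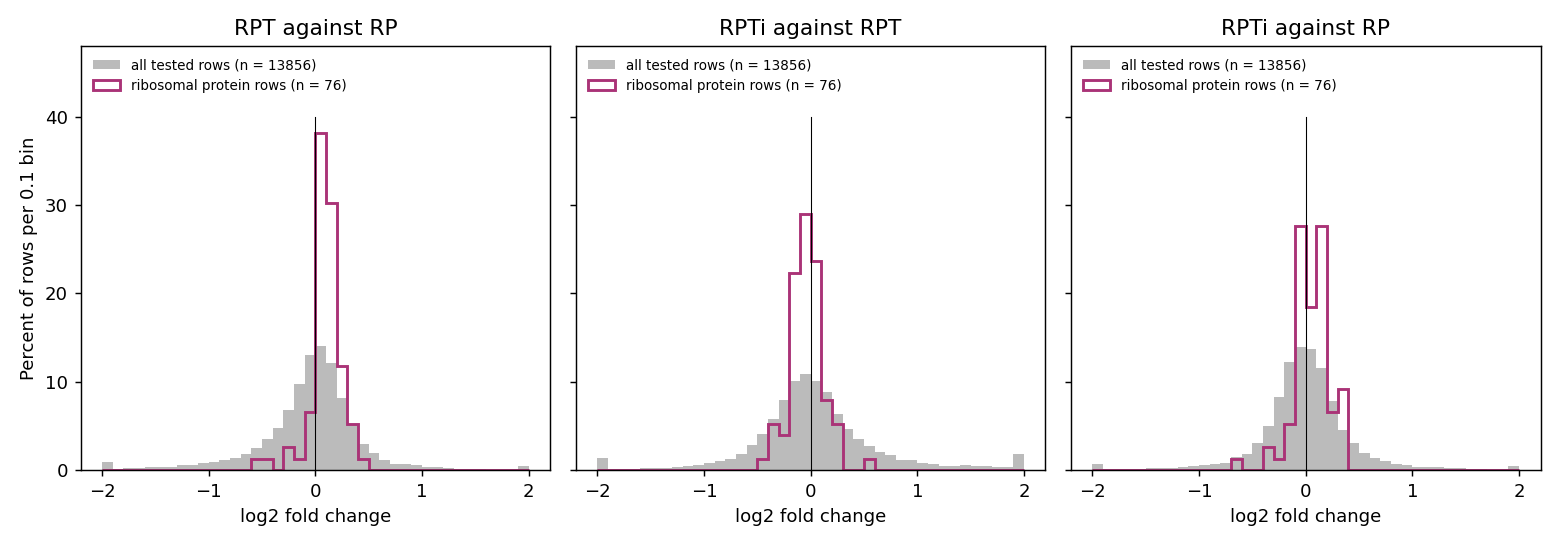
Distribution of log2 fold changes (bins of 0.1, as percent of rows) in the 3 comparisons for all 13856 tested rows (grey) and the 76 ribosomal protein rows (outline), with values past 2 in the end bins. The members form a narrow band near 0 in each panel, with medians of 0.10, -0.03 and 0.07.

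Across the 3 groups at once, the F test called 6 of the 76 members (7.89%) and 46.7% of all tested rows. They were Rpl13a (adjusted p = 0.00881), Rpl23 (adjusted p = 0.00898), the Rpl21 rows ENSRNOG00000029410 and ENSRNOG00000032803 (adjusted p = 0.0177 and 0.0215), Rps3a (adjusted p = 0.0308) and Rps27 (adjusted p = 0.0485).

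By role in the ribosome, most parts held no called member in the main fit, which had no replicate block. Of the stalk that recruits elongation factors, Rplp0 stood at 2554, 2721 and 2215 CPM in RP, 2498, 2795 and 2223 CPM in RPT and 2829, 2887 and 2503 CPM in RPTi. Its groups overlapped (F test adjusted p = 0.366), and it, too, is a common reference transcript. Rpl5 and Rpl11, which form the 5S particle and bind Mdm2 when ribosome assembly fails, did not pass either. Rpl5 stood at 673, 656 and 682 CPM in RP, 693, 689.6 and 840.1 CPM in RPT and 678, 651 and 665 CPM in RPTi, with RPT library 3 apart (F test adjusted p = 0.139). Rpl11 stood at 462, 436 and 405 CPM, 435, 469 and 474 CPM, and 443, 457 and 403 CPM in the same order (F test adjusted p = 0.487).

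On the small subunit, Rpsa stood at 1685, 1817 and 1529 CPM in RP, 1664, 1913 and 1587 CPM in RPT and 1865, 1874 and 1679 CPM in RPTi (F test adjusted p = 0.507), with overlap between all groups. Rps6 stood at 3.93, 3.13 and 3.70 CPM, 5.44, 4.02 and 3.99 CPM, and 4.37, 2.74 and 3.18 CPM (F test adjusted p = 0.219). The 5 tested members of the list for mRNA entry and exit and the 2 of the decoding centre were called in no comparison of the main fit. Neither were the 2 of the stalk or the 2 of the 5S particle. With a replicate block some members of each of these parts were called, as given in the last section. With library totals alone or on log2(FPKM + 1), 1 member of the 5S particle fell in RPTi against RPT, and with the DESeq2 Wald test or no filter on low counts 1 of mRNA entry and exit rose in RPTi against RP. Of 8 tested exit tunnel members, Rpl39 fell in RPT against RP and Rpl19 rose in RPTi against RP.

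Rps27a encodes a fusion of ubiquitin and a small subunit protein, and its 2 rows behaved differently between libraries. The abundant row (ENSRNOG00000004426) stood at 611, 578 and 629 CPM in RP, 555, 535 and 692 CPM in RPT and 606, 564 and 584 CPM in RPTi. The other (ENSRNOG00000034246) stood at 81.5, 126 and 84.6 CPM, 122, 186 and 97.8 CPM, and 127, 142 and 89.4 CPM. Library 2 was the highest of its group in the second row in all 3 groups and the lowest in the first. The second row had the members' highest log2 fold change in RPT against RP, 0.47, which did not pass (SE 0.23, adjusted p = 0.147).

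Paralogs of ribosomal proteins that the family rule leaves out had 7 tested rows. Of these, 2 rose (Rpl39l and Rpl7l1) and 5 did not pass in RPT against RP. In RPTi against RPT 4 fell and 3 did not pass, and in RPTi against RP all 7 did not pass. The shares called were 28.6, 57.1 and 0%, beside 28.9, 41.5 and 24.2% of all tested rows. Rpl7l1 stood at 64.0, 64.0 and 63.6 CPM in RP, 74.1, 74.8 and 77.3 CPM in RPT and 66.2, 65.1 and 61.6 CPM in RPTi. RPT lay above both other groups in every library, by a log2 fold change of 0.24 against RP (SE 0.06, adjusted p = 0.00861), and RPTi was lower than RPT by -0.23 (SE 0.06, adjusted p = 0.00712). Rpl22l1 stood at 41.2, 39.8 and 48.3 CPM in RPT and at 33.7, 33.1 and 32.4 CPM in RPTi (log2 -0.38, SE 0.08, adjusted p = 0.00195). Whether paralogs and members differ in how often they pass was not tested.

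The proteins of the mitochondrial ribosome, a separate particle, had 72 tested rows. In RPT against RP, 16 rose and 56 did not pass (22.2%), and the median was 0.12. In RPTi against RPT, 1 rose and 12 fell (18.1%, median -0.10), and in RPTi against RP, 1 rose and 1 fell (2.78%, median 0.09). Of all tested rows 28.9, 41.5 and 24.2% were called in the same order. Mrpl46 rose in RPT (log2 0.41, SE 0.07, adjusted p = 0.00132) and was lower in RPTi than in RPT (log2 -0.36, SE 0.07, adjusted p = 0.00196). The difference between the 2 kinds of ribosome was not tested.

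Other transcripts that carry a TOP motif were tested as 21 rows. In RPT against RP 6 rose and 15 did not pass, in RPTi against RPT 7 fell and 14 did not pass, and in RPTi against RP 1 fell and 20 did not pass. The shares called, 28.6, 33.3 and 4.76%, were at or below those of all tested rows, 28.9, 41.5 and 24.2%. The nucleolar chaperone gene Npm1 stood at 724 ± 89.1 CPM in RPT and at 496 ± 32.7 CPM in RPTi (SD, n = 3; log2 -0.55, SE 0.09, adjusted p = 5.0e-04), and the splicing factor gene Hnrnpa1 was lower by -0.44 (SE 0.08, adjusted p = 0.00102). Vim, the intermediate filament gene, rose by 0.30 in RPT (SE 0.05, adjusted p = 7.6e-04) and was lower by -0.20 in RPTi than in RPT (SE 0.05, adjusted p = 0.00616). Among 7 assembly chaperones of ribosomal proteins, 2 rose in RPT, 2 were lower in RPTi than in RPT, and 1 rose in RPTi against RP. The shares called, 28.6, 28.6 and 14.3%, were also at or below those of all tested rows. Grwd1, the chaperone of Rpl3, rose in RPT and was lower in RPTi than in RPT (log2 0.43 and -0.39, SE 0.09 each).

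Initiation and elongation factors outside the TOP list numbered 29. In RPT against RP 8 rose and 21 did not pass, in RPTi against RPT 3 rose and 12 fell, and in RPTi against RP 4 rose and 5 fell. These are 27.6, 51.7 and 31% of the list, beside 28.9, 41.5 and 24.2% of all tested rows. The helicase gene Eif4a1 stood at 732 ± 11.3 CPM in RP, 891 ± 71.8 CPM in RPT and 690.3 ± 15.7 CPM in RPTi (SD, n = 3). It rose by 0.28 in RPT (SE 0.06, adjusted p = 0.00341) and was lower by -0.37 in RPTi than in RPT (SE 0.06, adjusted p = 3.1e-04). The cap-binding factor gene Eif4e was lower in RPTi than in RPT (log2 -0.45, SE 0.09, adjusted p = 0.0012), whereas Eif1, which guards start codon choice, was higher (log2 0.28, SE 0.05, adjusted p = 9.1e-04).

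Regulators of TOP translation were called about as often as all tested rows. Of 25 tested genes of the mTOR pathway and TOP control, 3 rose and 5 fell in RPT against RP, 7 rose and 3 fell in RPTi against RPT (7 and 8 with library totals alone), and 5 rose and 1 fell in RPTi against RP. The shares called were 32, 40 and 24%, beside 28.9, 41.5 and 24.2% of all tested rows. The genes named next are called ones with small p, so their folds do not describe the list. Deptor, an inhibitor of mTOR, stood at 25.1 ± 3.76 CPM for RP, 10.2 ± 1.04 CPM for RPT and 21.8 ± 1.04 CPM for RPTi (SD, n = 3). It fell in RPT (log2 -1.30, SE 0.11, adjusted p = 3.8e-06) and rose in RPTi against RPT (log2 1.09, SE 0.11, adjusted p = 7.5e-06). Castor1, the arginine sensor that restrains mTOR complex 1, fell in RPT (log2 -0.72, SE 0.08, adjusted p = 3.5e-05) and rose in RPTi against RPT (log2 1.19, SE 0.08, adjusted p = 1.7e-07). Pdcd4, which binds and blocks eIF4A, fell in RPT (log2 -1.10, SE 0.09, adjusted p = 1.6e-06) and was still lower in RPTi than in RP (log2 -0.67, SE 0.09, adjusted p = 1.2e-04). Eif4ebp1, whose product binds eIF4E and represses cap-dependent translation, rose instead in RPT (log2 0.48, SE 0.07, adjusted p = 1.9e-04), and was higher in RPTi than in RP as well (log2 0.35, SE 0.07, adjusted p = 0.00244). Mknk2, a kinase of eIF4E, fell in RPT (log2 -0.44, SE 0.08, adjusted p = 0.00101) and rose in RPTi against RPT (log2 0.83, SE 0.08, adjusted p = 2.9e-06). Larp1, which binds TOP motifs, rose in RPT (log2 0.35, SE 0.05, adjusted p = 2.2e-04) and was lower in RPTi than in RPT (log2 -0.33, SE 0.05, adjusted p = 1.7e-04). These libraries hold no measure of mTOR activity or of translation.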

How the data were processed

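RNA of 9 chondrocyte libraries was analysed from 1 deposited table. Its whole-number read counts per Ensembl gene were made by the authors on the build Rnor_6.0; HISAT2, HTSeq 0.11.2 and DESeq2 1.26.0 are named in the submitters' processing notes, without roles. FPKM values, also deposited by the authors, were used for levels and 1 alternative. The annotation release, the strand setting and the treatment of reads that fit several places are not given in the labels used here. Antisense and overlapping genes therefore cannot be told apart from the members. The members and lists were chosen with earlier results of these data known.

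Rows were filtered with filterByExpr (minimum count 10, minimum total 15), leaving 13856 of 18924 rows, and scaled by TMM. A single quasi-likelihood model of edgeR 4.0.16 (R 4.3.3) covered the 3 groups, each with its own coefficient. Calls are Benjamini-Hochberg adjusted p below 0.05 over all tested rows. SE come from the fold and its F statistic. CPM are TMM-scaled. The script was tested on simulated data. Libraries had 31877265 to 43962783 counts. Alternatives were DESeq2 1.42.0, limma 3.58.1, other scalings and filters, a replicate block and left-out libraries. Named members were the stalk, 5S, Rpsa, Rps6, Rpl39, Rps27 and Rps27a genes, the 5 largest called rises and falls per comparison, the 5 highest and lowest levels, the 5 smallest F test p and the 5 members farthest from the median. Not every member or fold that these rules give is printed. 2 members enter the counts but are not reported here by themselves, in text or figures. Rpl21 ENSRNOG00000000957 was added after its values were seen. From other lists, up to 4 called genes with the smallest p were named. Sequences are from RefSeq, GRCr8, matched by symbol.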

Additional observations from a re-analysis of the deposited data

How the results depend on the processing

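Of 1382 single-gene folds recomputed under the alternatives, 0 changed sign, 1295 stayed on their side of the threshold, 64 lost a call and 23 gained one. These are folds of selected genes, mostly called ones and many outside the members. They do not describe members with folds near 0, whose sign may change. Counts of called members moved more. In RPT against RP, no member fell with DESeq2 size factors, library totals alone, low counts left unfiltered, the DESeq2 Wald test, a replicate block or only the 2 groups compared (0 against 1). Without the 3 libraries numbered 2, chosen after seeing the data, 2 rose and 0 fell. In RPTi against RPT, 17 fell with library totals alone, 5 with the DESeq2 Wald test, and 1 rose and 16 fell on log2(FPKM + 1). These are 22.4, 6.58 and 22.4% of the members, beside 44.4, 42.1 and 43.2% of all tested rows. In RPTi against RP, 1 rose and 4 fell with library totals alone and on log2(FPKM + 1). There, 7 rose with the DESeq2 Wald test, 5 fell with only the 2 groups compared, and 0 fell with rows of one name summed. In these settings, in order, 6.58, 6.58, 13.2, 11.8 and 5.80% of the members were called. Of all tested rows 26.0, 24.1, 26.2, 29.4 and 24.2% were. Leaving out 1 library gave 1 to 9 rising and 0 to 1 falling in RPT against RP, 0 to 1 and 1 to 6 in RPTi against RPT, and 0 to 9 and 0 to 5 in RPTi against RP. The cause of these moves was not tested. The members' share of counts was 4.24, 4.50 and 4.39% without the 20 most abundant other rows and 9.35, 9.75 and 9.59% of summed FPKM, by construction of the denominator.

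Replicate numbers are in the labels, but nothing says what a number shares. Deviations of same-numbered libraries over all tested rows correlated at -0.114 to 0.124, with 2 of 9 pairs above 0.1, so the numbers were not taken to pair the samples. Only 2 of 9 libraries correlated best with their own number. Over the members alone the same correlations were -0.235 to 0.857, and only that of RPT 1 with RPTi 1 was negative. Pairs with different numbers ran from -0.643 to 0.332 over the members. For the members, same-numbered libraries thus tended to deviate together, and what they share was not tested. Where no other setting is named, the counts of called members in the report are from the fit without a block. With a replicate block, 22 members rose and 0 fell in RPT against RP, 6 rose and 11 fell in RPTi against RPT, and 22 rose and 4 fell in RPTi against RP, or 28.9, 22.4 and 34.2% of the members, against 36.6, 48.3 and 33.8% of all tested rows. In RPTi against RP with the block, both decoding centre members, 3 of 5 of mRNA entry and exit and 1 of the stalk rose. In RPTi against RPT with the block, 1 of the stalk and 1 of the decoding centre rose, and 1 of the 5S particle fell. In RPT against RP with the block, 1 of mRNA entry and exit and 1 of the decoding centre rose. Adding counts of pseudogene rows to their parents gave no value, since the table held 0 such rows. The median SE of the members, 0.083 on the log2 scale, limits which differences could pass.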
